A study of Bos taurus with 7 samples.

Results

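The monocarboxylate transporters described here are SLC16A1, SLC16A3, SLC16A4, SLC16A7 and SLC16A8, the sodium-coupled transporters SLC5A8 and SLC5A12, and basigin (BSG), which brings several of them to the cell surface. Members were the non-control probes whose gene name in the scanner files equals 1 of these 8 symbols. Each of the 8 genes had 1 probe, printed as 1 spot, so the members are 8 of 14952 gene names on the array. Rumen epithelial RNA from 7 Holstein calves had been hybridised to single-colour Agilent arrays, 1 per calf, all on 1 slide. The HAY calves (9, 10 and 13) were given forage, and the CON calves (8, 11, 12 and 14) were not. The series concerns forage and calf starter around weaning, and its design text places the division of the calves 3 weeks after weaning. No age, genotype or treatment other than forage was given for the groups in the sources used here. The question was whether the genes that carry short-chain acids across the epithelium differ between calves fed with and without forage.

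Microbes in the rumen ferment feed to acetate, propionate and butyrate, and the stratified epithelium absorbs these acids and turns much of the butyrate into ketone bodies. MCT1, the product of SLC16A1, moves lactate, pyruvate, ketone bodies and short-chain fatty acids together with a proton and depends on basigin to reach the membrane. MCT4, from SLC16A3, also binds basigin and is known for lactate export from glycolytic cells. MCT2 (SLC16A7) has a high affinity for lactate and pyruvate, MCT3 (SLC16A8) is known for lactate export from the retinal pigment epithelium, and the substrates of the SLC16A4 product are poorly defined. SLC5A8 and SLC5A12 encode transporters that couple the same acids to sodium.

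Whether a probe reads only its gene bears on every value below, so 2 probes with short runs shared with other probes and 1 with a long shared run are shown, 5′ to 3′ as in the deposited files. Capitals mark the longest exact run that the probe shares with any other probe of the array on either strand.
SLC16A1: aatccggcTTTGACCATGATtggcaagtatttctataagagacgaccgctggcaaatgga
SLC16A7: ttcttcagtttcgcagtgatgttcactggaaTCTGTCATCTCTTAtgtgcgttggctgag
SLC5A12: AAACTCCAGTACTTTGGCCAcctcatgcga
The SLC5A12 line holds bases 1 to 30 of its 60. The longest shared run was 12 bases in the SLC16A1 probe, 13 in those of SLC16A4 and SLC5A8, and 14 in those of SLC16A3, SLC16A7, SLC16A8 and BSG. In the SLC5A12 probe it was 20 bases, shared on the opposite strand with the SP140L probe. Only probes of the array were compared with each other, so a short run does not show that a probe reads only its gene.

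The SLC16A1 probe lies on the plus strand at chr3:30557485-30557544 of UMD_3.1, the build named in the file headers. The SLC16A4 probe lies on the same chromosome and strand at chr3:33169368-33169427. Chromosome 5 holds the probes of SLC16A7 (chr5:53994315-53994374), SLC5A8 (chr5:65387837-65387896) and SLC16A8 (chr5:110366202-110366261), all on the minus strand. The SLC16A3 probe lies at chr19:51244145-51244204 and the SLC5A12 probe at chr15:58144748-58144807, both on the minus strand, and the BSG probe at chr7:44823476-44823535 on the plus strand. The files give these positions but no exon or UTR, and no annotation of UMD_3.1 was used here. The SLC5A12 probe was listed with 4 RefSeq accessions, of which 1 belongs to SLC5A12, 1 to the splicing factor gene CWC25, 1 to the molybdenum cofactor gene MOCS3 and 1 had no match. Of 15008 probes, 46 listed 4 such accessions, 1570 listed 2, 11148 listed 1 and 2050 listed 0. The probes of SLC16A3 and SLC5A8 listed 2 each, 1 of the gene itself and 1 with no match. The SLC16A8 probe listed 0, and those of SLC16A1, SLC16A4, SLC16A7 and BSG listed 1 each. At least 15 bases in a row were shared with the SLC5A12 probe by 4 other probes, those of SP140L, YARS2, LOC510193 and CWC25, and with the other members' probes by none. The YARS2 and CWC25 probes shared their run on the same strand, those of SP140L and LOC510193 on the opposite strand. All 4 were bright on every array, the lowest value standing at the 94.2th percentile. The value of the SLC5A12 probe is therefore given as that of the probe and not of its gene.

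Signals are given as log2 values relative to the 75th percentile of the same array, so that 0 equals that percentile and 1 unit is a factor of 2. A probe's brightness also depends on its own sequence, so an order of signals between probes is not an order of transcript amounts. The probes nonetheless fell into separate ranges of detection. The SLC16A1 probe stood between the 93.8th and 96.5th percentile of its array and the BSG probe between the 97.0th and 98.1th, and both were well above background on all 7 arrays and saturated on none. SLC16A3, from the 42.2th to the 51.3th percentile, and SLC16A8, from the 37.7th to the 41.2th, were well above background on all 7 arrays too. SLC5A8 passed background on 2 of 3 HAY and 2 of 4 CON arrays, SLC16A4 on 1 of 3 HAY and on 0 of 4 CON arrays, and SLC16A7 on 0 of 7.

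**Figure D1:**
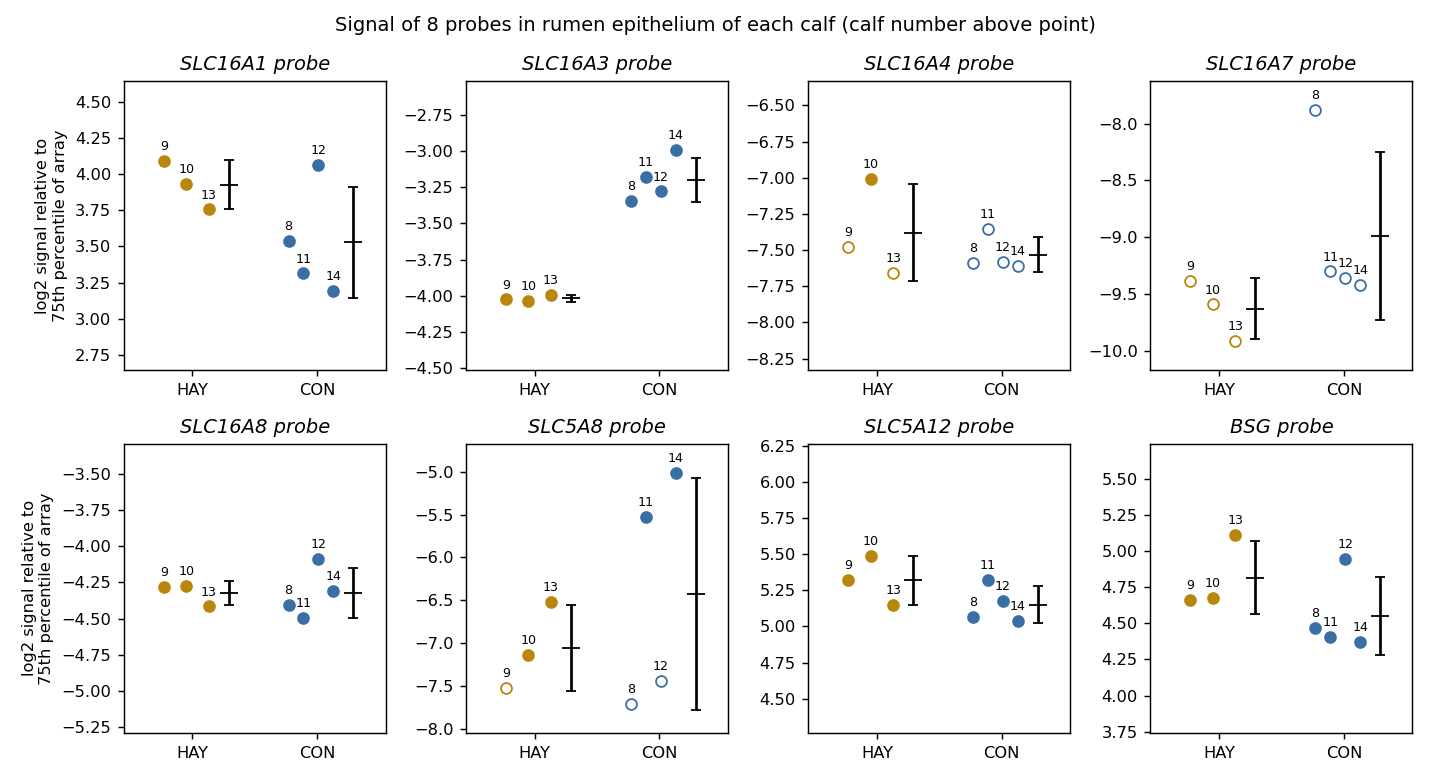
Log2 signal relative to the 75th percentile of the array (y axis, a separate range for each probe) for 3 HAY and 4 CON calves, with the calf number above each point. Filled points were well above background and open points were not, and black marks give the mean and SD. The HAY points of SLC16A3, at -4.04 to -3.99, all lie below the CON points, at -3.34 to -2.99, while the groups overlap in the other 7 panels.

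The epithelium and its surroundings were checked first. All 8 basal layer markers, among them the keratin genes KRT5, KRT14 and KRT15, were well above background on all 7 arrays. Of 10 suprabasal and cornified markers on the array, 7 were, among them the envelope gene IVL, while LOR and KRT4 reached this on 4 arrays each and DSC1 on 3. KRT4, a keratin of wet stratified epithelia, was well above background on 0 of 3 HAY and 4 of 4 CON arrays. It entered the test through the CON arrays, so no size is given for its difference. Of the 10 tested suprabasal and cornified markers, 5 had higher and 5 lower means in HAY (median difference 0.04). KRT4 is 1 of the 5 lower and is part of this median and of the suprabasal score below. No marker of any list passed the limma adjustment. Of all tested probes, 13.9% had an unadjusted limma p under 0.05, made up of 6.78% higher and 7.16% lower in HAY. Many markers of other cells had lower means in HAY, against a share of 54.5% of all tested probes with higher means: all 12 tested fibroblast and matrix genes and all 10 smooth muscle genes had lower means in HAY, as had 9 of 10 endothelial and 8 of 9 myeloid genes. Lower at an unadjusted p under 0.05 were 6 of the 12 fibroblast and matrix genes, 7 of the 10 smooth muscle genes, 3 of the 10 endothelial genes and 8 of the 9 myeloid genes. Of 6 tested nerve and glia genes 5 had higher means in HAY, 1 of them at an unadjusted p under 0.05. A score was taken as the mean log2 deviation of the tested markers from their mean over 7 arrays. The myeloid score was -0.71 to -0.25 in HAY and 0.19 to 0.64 in CON, without overlap, and the smooth muscle score -1.09 to -0.16 in HAY and 0.03 to 1.52 in CON. ITGAM was well above background on no array, and the other 9 myeloid markers on all 7. The fibroblast score overlapped, at -1.50 to 0.20 in HAY and -0.22 to 1.54 in CON, as did the endothelial score, at -1.21 to 0.23 in HAY and 0.01 to 0.61 in CON. The lymphocyte score was -0.18 to -0.01 in HAY and -0.35 to 0.28 in CON, and the nerve and glia score -0.07 to 0.26 in HAY and -0.20 to 0.05 in CON. Of 8 tested lymphocyte genes, 5 had higher and 3 lower means in HAY (median difference 0.22). Among the lower, CD5 and CD3E were each well above background on 0 of 3 HAY and 3 of 4 CON arrays. Both entered the test, and so the lymphocyte score, through the CON arrays. The basal layer score overlapped, at -0.43 to 0.25 in HAY and -0.09 to 0.09 in CON, and so did the suprabasal score, at -0.93 to 0.20 in HAY and -0.32 to 0.48 in CON, with HAY calf 13 lowest in both. In whole tissue, fewer cells of a type and less RNA per cell cannot be told apart. The HAY arrays also lay in row 1 of the slide and the CON arrays in row 2, so an effect of the row cannot be told apart from one of feeding.

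SLC16A3 had lower values in HAY than in CON. The scanner read 116, 115 and 138 intensity units for HAY calves 9, 10 and 13, against 182, 206, 157 and 246 in CON calves 8, 11, 12 and 14. The scaled log2 signal was -4.03, -4.04 and -3.99 in these HAY calves, against -3.34, -3.18, -3.28 and -2.99 in these CON calves. All 3 HAY calves lay below all 4 CON calves, and the HAY calves lay close together while CON calf 14 was the highest. The means were -4.02 ± 0.02 in HAY (SD, n = 3) and -3.20 ± 0.15 in CON (SD, n = 4), a level 1.76-fold lower in HAY. The log2 difference was -0.82 (SE 0.13, 95% confidence interval -1.13 to -0.51) (limma, adjusted p = 0.165 over 12604 probes). It did not pass the adjusted threshold of 0.05 and ranked 27 of 12604 by p. The unadjusted limma p was 0.000364, and exact permutation of the 7 calves (35 splits, two-sided) gave p = 0.0286, the smallest that this design allows. With normexp background correction the difference was -0.60 (limma adjusted p = 0.149). The scanner software did not find a distinct spot for SLC16A3 on 5 of 7 arrays, those of the HAY calves and of CON calves 11 and 12, and read the signal at the expected position. On the 2 arrays where a spot was found, CON calves 8 and 14, the log2 signal was -3.34 and -2.99. Most myeloid, smooth muscle, fibroblast and endothelial markers also had lower means in HAY, and their part in the SLC16A3 difference was not tested.

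**Figure D2:**
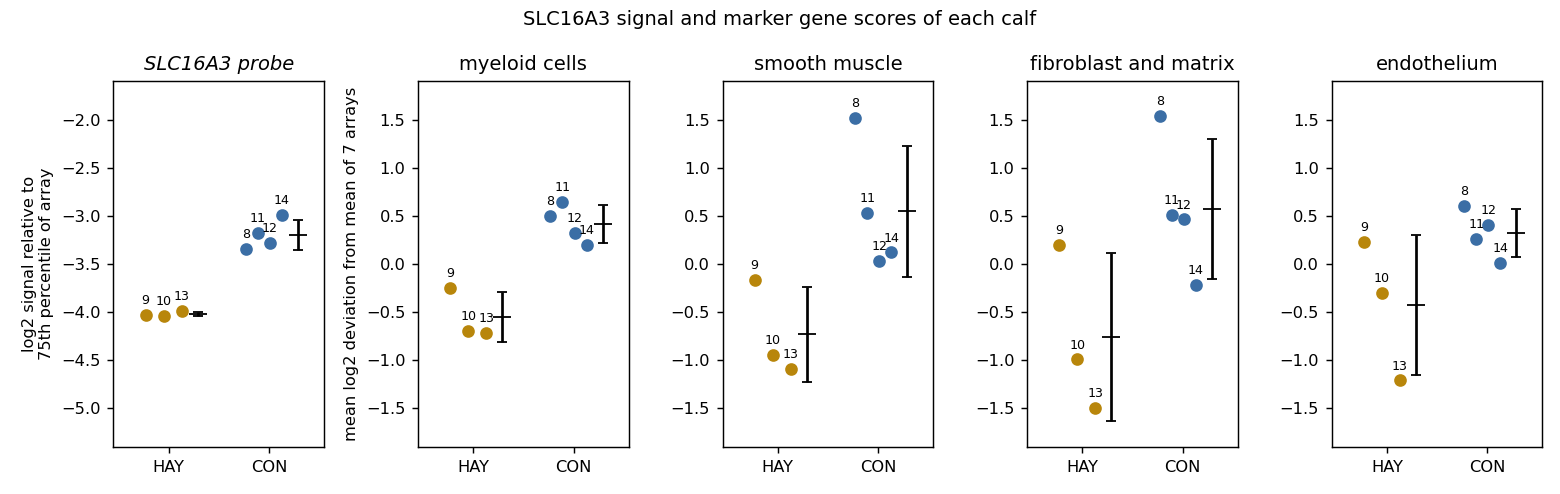
The first panel gives the log2 signal of the SLC16A3 probe relative to the 75th percentile of the array. The other panels give, per calf, the mean log2 deviation of the marker genes from their mean over 7 arrays, with the mean and SD in black: HAY lies below CON without overlap for SLC16A3, myeloid cells and smooth muscle, and overlaps CON for fibroblast and endothelial markers.

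SLC16A1 had a higher mean in HAY, with overlap between the groups. The scanner read 32120, 28834 and 29564 intensity units for HAY calves 9, 10 and 13, against 21509, 18564, 25523 and 17937 in CON calves 8, 11, 12 and 14. Before scaling, all HAY calves were therefore above all CON calves, as in 10.4% of all tested probes. Without scaling, 72.2% of all tested probes had higher means in HAY. After scaling, the log2 signal was 4.09, 3.93 and 3.76 in the HAY calves, against 3.54, 3.31, 4.06 and 3.19 in the CON calves. CON calf 12, whose array had the lowest 75th percentile (1526 intensity units, against 1850 to 2189 on the other arrays), then lay within the HAY range. The means were 3.93 ± 0.17 in HAY (SD, n = 3) and 3.53 ± 0.39 in CON (SD, n = 4), 1.32-fold higher in HAY. The log2 difference of 0.40 (SE 0.23, 95% confidence interval -0.13 to 0.93) did not pass (limma p = 0.118, adjusted p = 0.471), and the exact permutation test gave p = 0.143. Without CON calf 12 the log2 difference was 0.58, which was under the unadjusted but not the adjusted threshold (limma adjusted p = 0.368). Without any scaling between arrays, a setting chosen after the data were seen, it was 0.54, again under the unadjusted threshold alone (limma adjusted p = 0.266), where the median over all tested probes was 0.18 in place of 0.03.

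BSG, the partner that MCT1 and MCT4 share, also had a higher mean in HAY, with overlap. Its log2 signal was 4.66, 4.68 and 5.11 in HAY calves 9, 10 and 13, against 4.47, 4.41, 4.95 and 4.37 in CON calves 8, 11, 12 and 14. HAY calf 13 and CON calf 12 were high within their groups, and the other 5 calves lay between 4.37 and 4.68. The means were 4.82 ± 0.25 in HAY (SD, n = 3) and 4.55 ± 0.27 in CON (SD, n = 4). The log2 difference was 0.27 (SE 0.20, 95% confidence interval -0.19 to 0.73), with a limma p = 0.216, an adjusted p = 0.577 and an exact permutation p = 0.286. It was 0.12 without HAY calf 13 and 0.40 without CON calf 12.

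SLC16A8 had nearly equal means. The log2 signal was -4.28, -4.27 and -4.42 in HAY calves 9, 10 and 13, against -4.40, -4.49, -4.09 and -4.31 in CON calves 8, 11, 12 and 14. The means were -4.32 ± 0.08 in HAY (SD, n = 3) and -4.32 ± 0.17 in CON (SD, n = 4), and the 95% confidence interval of the log2 difference ran from -0.33 to 0.33 (limma p = 0.996, exact permutation p = 1). A fold change above 1.26 in either direction therefore lay outside the interval. The sign of the difference of 0.00079 varied with the processing, from -0.10 with normexp to 0.14 with no scaling between arrays.

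The SLC5A12 probe gave 5.32, 5.49 and 5.15 in HAY calves 9, 10 and 13, against 5.06, 5.32, 5.17 and 5.04 in CON calves 8, 11, 12 and 14. The groups overlapped, with a log2 difference of 0.17 (SE 0.14, 95% confidence interval -0.17 to 0.51, limma adjusted p = 0.636, exact permutation p = 0.2). Of the 4 probes that share 15 bases or more with it, those on the same strand had log2 differences of 0.16 (YARS2) and 0.23 (CWC25). Those on the opposite strand had 0.02 (SP140L) and 0.07 (LOC510193).

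SLC5A8 was near the limit of detection, and its spread between calves depended on the background correction. Its log2 signal was -7.52, -7.13 and -6.52 in HAY calves 9, 10 and 13, against -7.71, -5.53, -7.44 and -5.01 in CON calves 8, 11, 12 and 14. CON calves 11 and 14 were the brightest, with 40.4 and 60.8 intensity units, while CON calves 8 and 12 and HAY calf 9 were not well above background. The within-group SD was 1.10, against 0.12 to 0.32 for the other tested members, but with normexp it was 0.24, against 0.07 to 0.30 for the others. The log2 difference of -0.64 (SE 0.69) had a 95% confidence interval from -2.25 to 0.97 (limma adjusted p = 0.722, exact permutation p = 0.457), which includes a level 2-fold lower in HAY. The log2 difference was -0.30 (SE 0.17, limma adjusted p = 0.465) with normexp and -1.06 (SE 0.47, limma adjusted p = 0.392) with the slide column as a block.

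SLC16A4 and SLC16A7 were below the filter, which asked for signals well above background on at least 3 of 7 arrays. SLC16A4 read 10.5, 14.7 and 10.9 intensity units in HAY calves 9, 10 and 13, against 9.61, 11.4, 7.96 and 10.0 in CON calves 8, 11, 12 and 14. HAY calf 10 was the only array where it was well above background, and no fold bound above 1 could be set. SLC16A7 read 2.83, 2.45 and 2.27 units in the HAY calves, against 7.85, 2.97, 2.32 and 2.86 in the CON calves. The lowest signal that counted as well above background was 9.02 to 12.2 units, depending on the array, so SLC16A7 was not detectable and no fold is given.

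**Figure D3:**
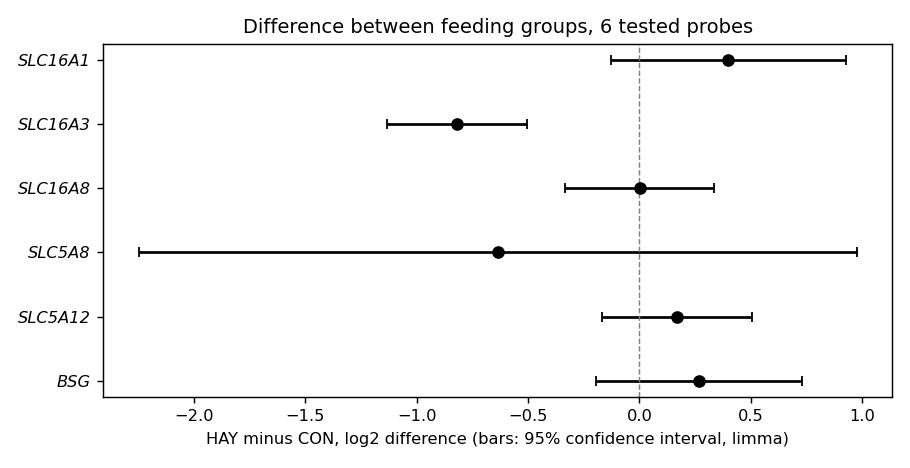
HAY minus CON log2 difference (x axis) of the 6 tested probes, with 95% confidence intervals from limma. The interval of SLC16A3, -1.13 to -0.51, lies below 0, and those of the other 5 probes include 0.

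Of the 6 tested members, 0 passed the adjusted threshold with limma, where 0.00793% of all 12604 tested probes did. At an unadjusted p under 0.05 stood 1 member, SLC16A3, against 13.9% of all tested probes, made up of 6.78% higher and 7.16% lower in HAY. The groups did not overlap in 1 member, against 11.8% of all tested probes, made up of 6.53% higher and 5.29% lower in HAY. For 6 members, a count of 1 is close to these shares. A log2 change of 2 units simulated in 200 probes with the spread of these arrays was recovered in 86.5% of cases. The largest log2 difference of a tested member was -0.82, for SLC16A3. Changes of that size were not simulated, so the 86.5% does not show how often they would be found.

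The signals of 2 members on the same array were also subtracted, which cancels any shift of the whole array and shows unequal change, but not which of the 2 moved. SLC16A1 minus SLC16A3 was 8.12, 7.97 and 7.75 in HAY calves 9, 10 and 13, against 6.88, 6.49, 7.34 and 6.19 in CON calves 8, 11, 12 and 14. All HAY values lay above all CON values, and CON calf 12 came closest to them. The mean was 7.95 ± 0.19 in HAY (SD, n = 3) and 6.73 ± 0.50 in CON (SD, n = 4), a difference of 1.22 (exact permutation p = 0.0571, adjusted p = 0.171 over 9 pairs). SLC16A3 minus BSG was -8.83 ± 0.23 in HAY and -7.75 ± 0.37 in CON, again without overlap (difference -1.09, exact permutation p = 0.0571, adjusted p = 0.171). SLC16A1 minus SLC16A8 did not overlap either, with a difference of 0.40 (exact permutation p = 0.0571, adjusted p = 0.171). The difference between SLC16A1 and BSG overlapped, at -0.89 ± 0.41 in HAY and -1.02 ± 0.14 in CON (exact permutation p = 0.571, adjusted p = 0.643). In HAY it was lowest in calf 13, at -1.35, where BSG was high, and highest in calf 9, at -0.57. None of the 9 pairs passed after adjustment, and with adjustment over 9 pairs a single pair at the smallest p of 0.0286 could not have passed.

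**Figure D4:**
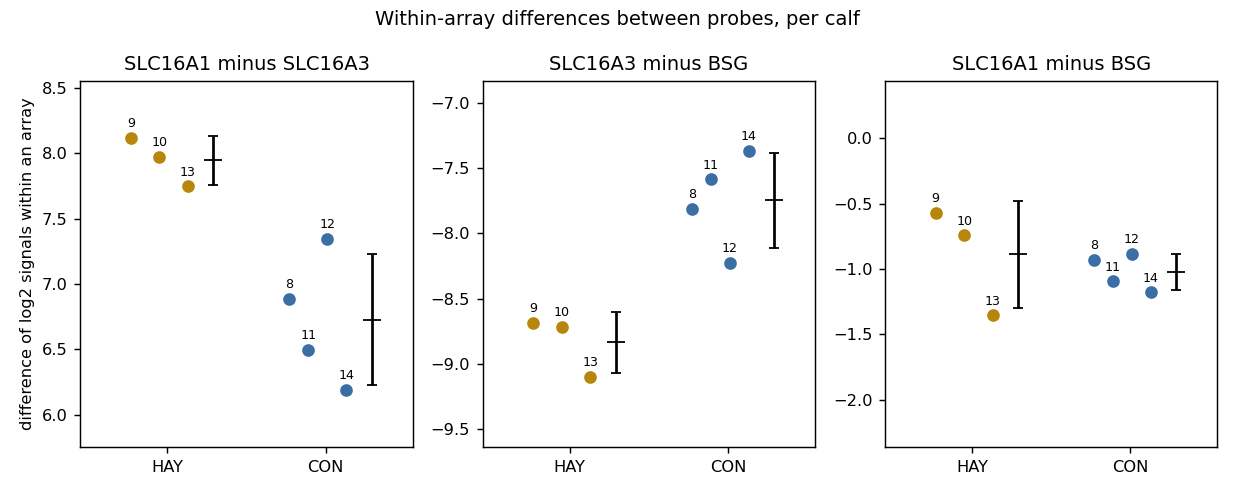
Difference of the log2 signals of 2 probes on the same array (y axis, equal span in each panel) for each calf, with mean and SD in black. SLC16A1 minus SLC16A3 is at least 7.75 in the HAY calves and at most 7.34 in the CON calves, while SLC16A1 minus BSG overlaps.

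Across the 7 calves, SLC16A1 and SLC16A3 had a Pearson r of -0.70 (exact permutation p = 0.0935, adjusted p = 0.157 over 3 relations) and a rank coefficient, Spearman's rho, of -0.71 (exact permutation p = 0.0881, adjusted p = 0.164). The coefficient r was -0.65 after centring within feeding groups and -0.27 without CON calves 11 and 14, so it rests largely on these 2 calves. SLC16A1 and BSG had r = 0.68 (exact permutation p = 0.105, adjusted p = 0.157) and rho = 0.68 (exact permutation p = 0.110, adjusted p = 0.164), with r = 0.54 after centring and r = 0.28 without CON calves 11 and 14. SLC16A3 and BSG had r = -0.56 (exact permutation p = 0.196, adjusted p = 0.196) and rho = -0.61 (exact permutation p = 0.167, adjusted p = 0.167), with r = -0.30 after centring and r = -0.80 without HAY calves 9 and 10. None of the 3 relations passed.

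Among 11632 probes well above background on all 7 arrays, those whose values followed each member most closely are named as a description. For SLC16A1 they were OMA1 (r = 0.988) and GBP4 (r = 0.985). For SLC16A3 they were GPR183, a receptor that guides lymphocytes and dendritic cells (r = 0.980), and RASGRP2, a guanine nucleotide exchange factor of blood cells (r = 0.971). For BSG they were TOMM6, a small subunit of the mitochondrial import pore (r = 0.977), and MST1 (r = 0.968). For SLC16A8 they were WDR47 and WDR36 (r = 0.963 and 0.957), and for the SLC5A12 probe PISD and PON2 (r = 0.986 and 0.975). With 7 points and this many probes high coefficients arise readily, and 1% of the probes exceeded 0.833 for SLC16A1 and 0.858 for SLC16A3.

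Of the other SLC16 genes, 7 of 9 listed were on the array and 6 were tested, of which 3 had higher and 3 lower means in HAY (median difference -0.01, against 0.03 over all tested probes). SLC16A6, whose product is MCT7 and which carries ketone bodies in zebrafish liver, had means of -5.83 in HAY and -5.21 in CON, a log2 difference of -0.61 (SE 0.24, limma adjusted p = 0.325) without overlap. SLC16A14 had a difference of -0.33 and SLC16A13 of 0.20.

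Of the genes for making and using ketone bodies, 10 of 11 were tested, with 6 higher and 4 lower in HAY (median difference 0.13). At an unadjusted p under 0.05 stood 4 with higher and 1 with lower values, against 6.78% and 7.16% of all tested probes, and 0 passed the limma adjustment. BDH2, a dehydrogenase related to that pathway, had means of -3.09 in HAY and -3.73 in CON (log2 difference 0.64, SE 0.22, limma adjusted p = 0.297), without overlap. OXCT1, which activates acetoacetate for use as fuel, had means of -4.70 in HAY and -3.71 in CON (log2 difference -0.99, SE 0.32, adjusted p = 0.280), without overlap.

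Lactate and pyruvate enzymes had higher means in HAY for 6 and lower means for 5 of 11 tested genes (median difference 0.01). At an unadjusted limma p under 0.05 stood 2 with higher values, LDHD and MPC1, and 0 with lower values. The shares of all tested probes were 6.78% and 7.16%, and 0 genes of the list passed the limma adjustment. The lactate dehydrogenase gene LDHA, which forms lactate from pyruvate, had a log2 difference of -0.18 (SE 0.14, limma adjusted p = 0.610) without overlap between the groups. In this list the groups did not overlap in 1 gene with higher and 1 with lower values in HAY, against 6.53% and 5.29% of all tested probes. LDHB was well above background on no array. LDHD, a dehydrogenase of D-lactate, passed background on 3 of 3 HAY arrays and 1 of 4 CON arrays. It entered the test through the HAY arrays, so no size is given for its difference. Its place in the counts above is for the same reason not read as a result. MPC1, a subunit of the mitochondrial pyruvate carrier, differed by 0.57 (SE 0.19, adjusted p = 0.292), and PDK4, a kinase that restrains pyruvate dehydrogenase, by -0.60 (SE 0.32, adjusted p = 0.444).

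Glycolysis and hypoxia genes, a group to which SLC16A3 is related as a hypoxia-induced gene in human cells, had higher means in HAY for 15 of 20 tested genes, with a median difference of 0.09. Over all tested probes the share with higher means in HAY was 54.5%. At an unadjusted p under 0.05 stood only PFKP, a platelet-type phosphofructokinase, with means of -2.35 in HAY and -1.48 in CON (log2 difference -0.87, SE 0.25, limma adjusted p = 0.255). VEGFA, an angiogenic growth factor, differed by 0.35 and EGLN3, an oxygen-sensing hydroxylase, by 0.31.

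Acid, bicarbonate and anion exchange genes had higher means in HAY for 10 and lower means for 6 of 16 tested genes (median difference 0.04), with 3 higher and 2 lower at an unadjusted p under 0.05, against 6.78% and 7.16% of all tested probes, and 0 past the limma adjustment. CA12, a membrane carbonic anhydrase, had means of 1.19 in HAY and 0.29 in CON (log2 difference 0.90, SE 0.18, adjusted p = 0.182), without overlap. ATP1B1, the beta subunit of the sodium pump, differed by -0.89 (SE 0.22, adjusted p = 0.219), without overlap, and CA2, a cytosolic carbonic anhydrase, by -1.68 (SE 0.55, adjusted p = 0.283).

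**Figure D5:**
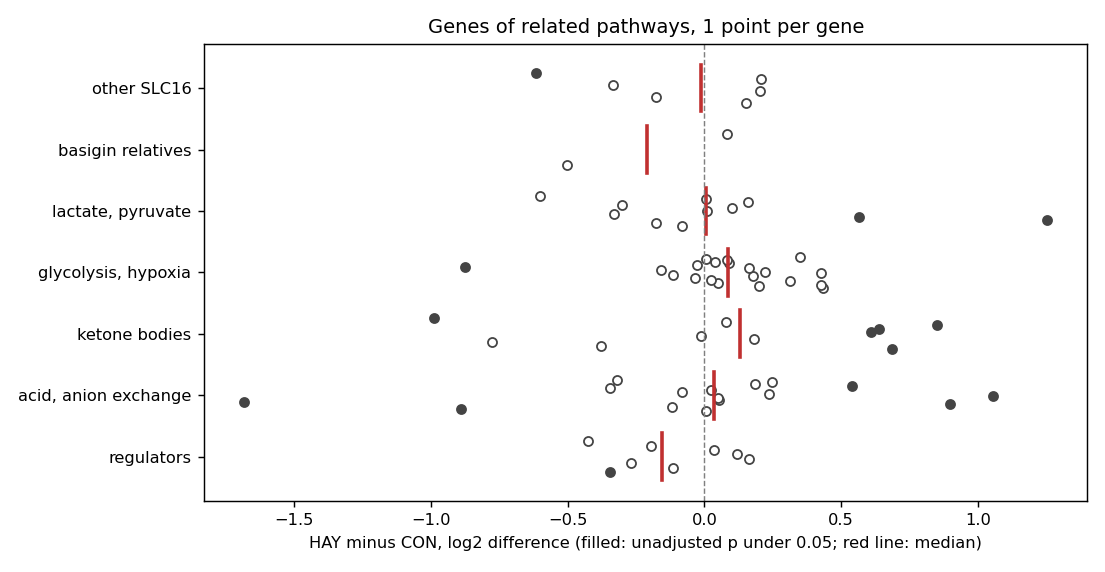
HAY minus CON log2 difference (x axis) of each tested gene in 7 lists related to the transporters. Filled points had an unadjusted limma p under 0.05, and red lines give list medians, which lie between -0.21 (basigin relatives, 2 genes) and 0.13 (ketone bodies, 10 genes).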

How the data were processed

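Each array was hybridised with Cy3-labelled RNA of 1 calf, per the labels' protocols. The deposited intensity values (linear scale) were background-subtracted and detrended with Agilent Feature Extraction 9.5 (version per the submitters' processing notes, steps per the file headers) and not scaled between arrays. The deposited whole-series log2 table, whose scale no label states, matched the scaled scanner values (Pearson r of at least 0.999999996 per array). Its median was -3.14, -3.16 and -3.23 for HAY (calves 9, 10, 13), against -3.11, -3.11, -3.11 and -3.13 for CON (calves 8, 11, 12, 14), and genes were not centred.

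Control spots and outlier spots were left out, log2 signals of a probe's spots averaged, and each array's 75th percentile subtracted. Between 81.5 and 84.6% of spots were well above background, and repeated spots, which are mostly brighter than SLC16A3, had a median coefficient of variation of 2.30 to 4.18%. Probes well above background on at least 3 arrays (12604 of 15008) were fitted with limma 3.58.1 in R 4.3.3 and adjusted by Benjamini-Hochberg over all of them. The fit was tested on simulated data. Single members and within-array differences were also tested by exact two-sided permutation. The number of arrays limits the precision, and calves are the replicates. Named genes are all members, up to 3 genes of smallest p per pathway list, and the 2 probes most correlated with each member detected on all arrays. LDHA, LDHB, PPARG, KRT4, CD5 and CD3E were chosen after their values were seen. Some genes that the rule names are not reported here. A list gene with several probes was read from the brightest. Members and lists were chosen with earlier results of these data known. Alternatives were normexp background correction (offset 50), other scalings and filters, slide column, a variance trend, the deposited table, the exact test and leaving out each calf. RefSeq names came from a table of ARS-UCD2.0, which named 11194 probes.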

Additional observations from a re-analysis of the deposited data

Results flagged for a closer look

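In 3 members, 1 of the 4 CON calves lay far from the other 3 by Dixon's test, which chance flags in about 1 in 20 groups. BSG had a log2 signal of 4.95 in CON calf 12, against 4.37 to 4.47 in CON calves 8, 11 and 14. SLC16A7 had -7.88 in CON calf 8, against -9.42 to -9.30 in the other CON calves, and was not well above background in any of them. SLC16A4 had -7.35 in CON calf 11, against -7.61 to -7.58 in the other CON calves, and was likewise not well above background in any CON calf. HAY, with 3 calves, was not tested in this way.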

How the results depend on the processing

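SLC16A3 kept lower values in HAY under all 17 alternatives (log2 difference -0.87 to -0.60), with an unadjusted p under 0.05 in each and adjusted limma p-values from 0.102 to 0.449. By the exact permutation test its difference of -0.82 had p = 0.0286. SLC16A1 and BSG kept higher means in HAY in all 17. In leave-one-out fits the difference ran from -0.87 to -0.75 for SLC16A3, from 0.29 to 0.58 for SLC16A1, from 0.12 to 0.40 for BSG, from 0.09 to 0.26 for the SLC5A12 probe, from -1.06 to -0.16 for SLC5A8 (-0.30 with normexp) and from -0.056 to 0.079 for SLC16A8. The SLC16A8 difference changed sign with normexp (-0.098) and in the fit blocked on slide column (-0.026). Within arrays, SLC16A1 minus BSG ran from -0.028 to 0.37 and SLC5A12 minus BSG from -0.25 to 0.13 in leave-one-out. No member passed the adjusted threshold in any setting. The number of members without overlap was 4 with no scaling (SLC16A1, SLC16A3, BSG and the SLC5A12 probe; of all tested probes, 10.4% were then apart and higher and 2.86% apart and lower in HAY, and 72.2% had higher means in HAY) and 1 to 3 in leave-one-out, and that at an unadjusted p under 0.05 was 2 with no scaling and 1 to 2 in leave-one-out. Over all probes, the count past the adjusted threshold was 1, or 4 with quantile normalization, 2 with the slide column as a block, 4 with no scaling, and 1 to 21 in leave-one-out, namely 21 when CON calf 14 was left out, 7 for HAY calf 9, 4 for CON calf 8 and 2 for HAY calf 13. The count at an unadjusted p under 0.05 was 1756, and 983 to 2343 in leave-one-out. The cause of these changes was not tested. Each member had 1 probe, so averaging over probes changed no member. No paired analysis was possible because the HAY and CON calves share no calf number. In the blocked fit CON calf 8, alone in its column, does not enter the contrast. SLC5A8, dim on 3 arrays, has no value with the stricter filter of all 7 arrays.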

Other observations

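Both relatives of basigin that can escort monocarboxylate transporters were measured on all 7 arrays. NPTN, neuroplastin, had means of 3.38 in HAY and 3.29 in CON, a log2 difference of 0.08 (SE 0.13, limma adjusted p = 0.818). EMB, embigin, had means of -6.10 in HAY and -5.60 in CON, a difference of -0.50 (SE 0.55, adjusted p = 0.722). Of 8 tested transcription factors that are named as regulators of these genes, 3 had higher and 5 lower means in HAY, with a median difference of -0.15. EPAS1, a hypoxia-inducible factor that is abundant in endothelium, had a difference of -0.35 (SE 0.12, adjusted p = 0.298) without overlap, and USF1 of -0.43, while PPARG differed by 0.03.

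Basigin and MCT1 are also present in the membrane of human red blood cells, and whether this holds in cattle was not examined here. Of the erythrocyte markers, 4 of 7 on the array were tested, and SLC4A1 was well above background on no array. The erythrocyte score was -0.18 to 0.27 in HAY and -0.21 to 0.11 in CON, with overlap. The part of blood in the BSG and SLC16A1 signals was not tested.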
